A study of Mus musculus with 6 samples.

Results

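The expression of 10 genes that mark fibroblasts or their activation, Fap, Thy1, Pdpn, Dpt, Pi16, Clec3b, Cd34, Ly6a, S100a4 and Gsn, was compared between mouse melanomas of 2 body sites, the hind footpad and the flank skin. The genes were picked by symbol, 1 row each, out of 45777 genes listed. The tumors arose from B16F10, a mouse melanoma cell line, grafted into the hind footpad (3 tumors) or the flank skin (3 tumors), and total RNA of each tumor gave 1 library. By the labels, all 6 hosts were Foxn1-/- mice, which lack a functional thymus, at an age of 8 weeks. The study's methods describe C57BL/6J hosts for these grafts, use Foxn1-null mice in other experiments, and name no host for the sequenced tumors, so the host is given here as labelled. Both sites thus share the graft line, the labelled host genotype and the age. The study's methods say that tumor cells were isolated from the graft sites before RNA extraction, the labels say that tumors were removed, and neither names a way of separating the cells from host tissue. How much host tissue entered each library is therefore not known. The methods also have the line grafted at several sites of a mouse at once, so tumors of the 2 sites may come from the same animals, which the labels do not give.

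Fibroblasts build and remodel the collagenous matrix of skin and of tumors. Resting fibroblasts around vessels and in the deep dermis are known for secreted and surface markers such as Dpt, Pi16, Clec3b, Cd34 and Ly6a, whereas fibroblasts activated in wounds and tumors are known for the protease Fap, for Pdpn and for contractile and matrix genes. None of the 10 genes is limited to fibroblasts: Cd34 is also a marker of endothelial and progenitor cells, Thy1 of T cells and neurons, Pdpn of lymphatic endothelium, and S100a4 and Gsn are used by many motile cells.

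The files held between 46529649 and 66364366 reads on genes per tumor, and a count of 3 reads, taken as the limit of detection, equalled 0.0438 to 0.0673 CPM (the count relative to the library size, scaled by edgeR's TMM factors). Differences between the sites were tested with edgeR's quasi-likelihood method on 17210 genes left after filtering, p-values were adjusted by Benjamini-Hochberg over all of them, and a gene counts as called where this adjusted p was under 0.05 and the fold at least 2. All fold changes are footpad over flank skin. The labels do not say whether replicates came from separate animals. The study's caption for the relative expression of selected genes in these tumors counts mice, without saying which tumors shared a mouse. Tumors of the 2 sites may thus be paired by animal, which the main fit does not take into account. The p-values measure the spread between these tumors. Footpad replicate 2 stood apart in skin and muscle genes: its summed CPM was 450 for 10 keratinocyte genes and 637 for 10 skeletal muscle genes, against at most 24.9 and 72.9 in the other tumors. Flank replicate 2 had the highest fibroblast level of its site, with a summed CPM of 886 over 18 other fibroblast genes against 397 and 424 in flank replicates 1 and 3. For the 10 genes, the value without either of these tumors is given where leaving it out ended a call. Calls of other genes may also depend on these tumors.

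Promoter windows from RefSeq (GRCm38.p6, 250 bases before to 50 after an annotated start) were on hand for 6 of the 10 genes and are shown for 4: S100a4, with the smallest adjusted p, Dpt and Pi16, which were at 0 in the same 2 flank skin tumors, and Pdpn, with the smallest fold change. Capitals mark TATAAA, the core of the TATA box; all 4 windows are written 5′ to 3′ on the strand of the gene.
S100a4 (chr3:90603520-90603819, plus strand): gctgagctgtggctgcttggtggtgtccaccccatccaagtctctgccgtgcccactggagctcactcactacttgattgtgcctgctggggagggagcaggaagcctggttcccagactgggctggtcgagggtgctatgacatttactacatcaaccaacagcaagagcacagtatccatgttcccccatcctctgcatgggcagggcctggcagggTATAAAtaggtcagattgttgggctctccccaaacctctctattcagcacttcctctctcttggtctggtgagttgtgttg
Dpt (chr1:164796413-164796712, plus strand): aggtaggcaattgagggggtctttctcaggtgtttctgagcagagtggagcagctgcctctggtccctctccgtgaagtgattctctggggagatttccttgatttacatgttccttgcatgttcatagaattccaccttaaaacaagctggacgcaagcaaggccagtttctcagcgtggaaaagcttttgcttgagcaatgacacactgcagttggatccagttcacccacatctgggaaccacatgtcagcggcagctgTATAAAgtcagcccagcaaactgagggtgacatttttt
Pi16 (chr17:29318632-29318931, plus strand): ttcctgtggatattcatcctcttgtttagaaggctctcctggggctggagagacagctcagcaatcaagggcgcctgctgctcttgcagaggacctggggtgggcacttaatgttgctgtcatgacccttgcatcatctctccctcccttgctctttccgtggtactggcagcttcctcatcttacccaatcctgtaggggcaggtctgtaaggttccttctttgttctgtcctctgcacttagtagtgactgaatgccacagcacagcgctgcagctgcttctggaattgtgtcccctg
Pdpn (chr4:143299515-143299814, minus strand): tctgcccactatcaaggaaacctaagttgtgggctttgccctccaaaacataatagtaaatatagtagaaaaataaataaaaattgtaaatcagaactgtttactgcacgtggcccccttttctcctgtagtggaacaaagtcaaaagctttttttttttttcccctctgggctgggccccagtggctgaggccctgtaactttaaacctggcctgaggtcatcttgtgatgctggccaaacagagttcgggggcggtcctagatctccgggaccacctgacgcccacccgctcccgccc
The windows of the 6 genes were searched on both strands for 4 motifs. TATAAA was found in 13.6% of 32851 RefSeq windows of this length, the TEAD motif GGAATG in 14.7%, the AP-1 motif TGANTCA in 7.81% and the CArG box of serum response factor in 1.63%. In S100a4 the first base of TATAAA lay 31 bases before the annotated start, and in Dpt it lay 13 bases after it. No other match was found in the windows of Dpt, S100a4, Pi16, Pdpn, Cd34 and Gsn, which says only that these letters are not in these windows.

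In the comparison of the sites, which asks how the footpad tumor differs from the flank skin tumor of the same line, 6 of the 10 genes were called higher in the footpad: Fap, Thy1, Clec3b, Cd34, Ly6a and S100a4. Among all genes tested 2.89% were called higher and 0.872% lower. No gene of the 10 was called lower by edgeR, by DESeq2 (which called 2.05% of all genes lower), or at an unadjusted p under 0.05 with a fold of 2 (0 genes each). For 8 of the 10 genes every footpad tumor was above every flank skin tumor, a pattern shown by 17.5% of all genes tested, and the exceptions were Pdpn and Gsn. The fitted fold change was above 0 for all 10 genes and for 49.7% of all genes tested. Footpad replicate 1 was the lowest footpad tumor for 8 of the 10 genes, against 41.8% of all genes tested, and flank replicate 2 the highest flank skin tumor for 6 of the 10, against 30.6%. Dpt, Pi16 and Clec3b had fewer than 10 reads in at least 2 flank skin tumors and entered the test only through the footpad tumors, so these shares describe the genes and are not support for a direction. In bulk RNA, fewer cells of a type and less RNA per cell cannot be told apart.

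**Figure D1:**
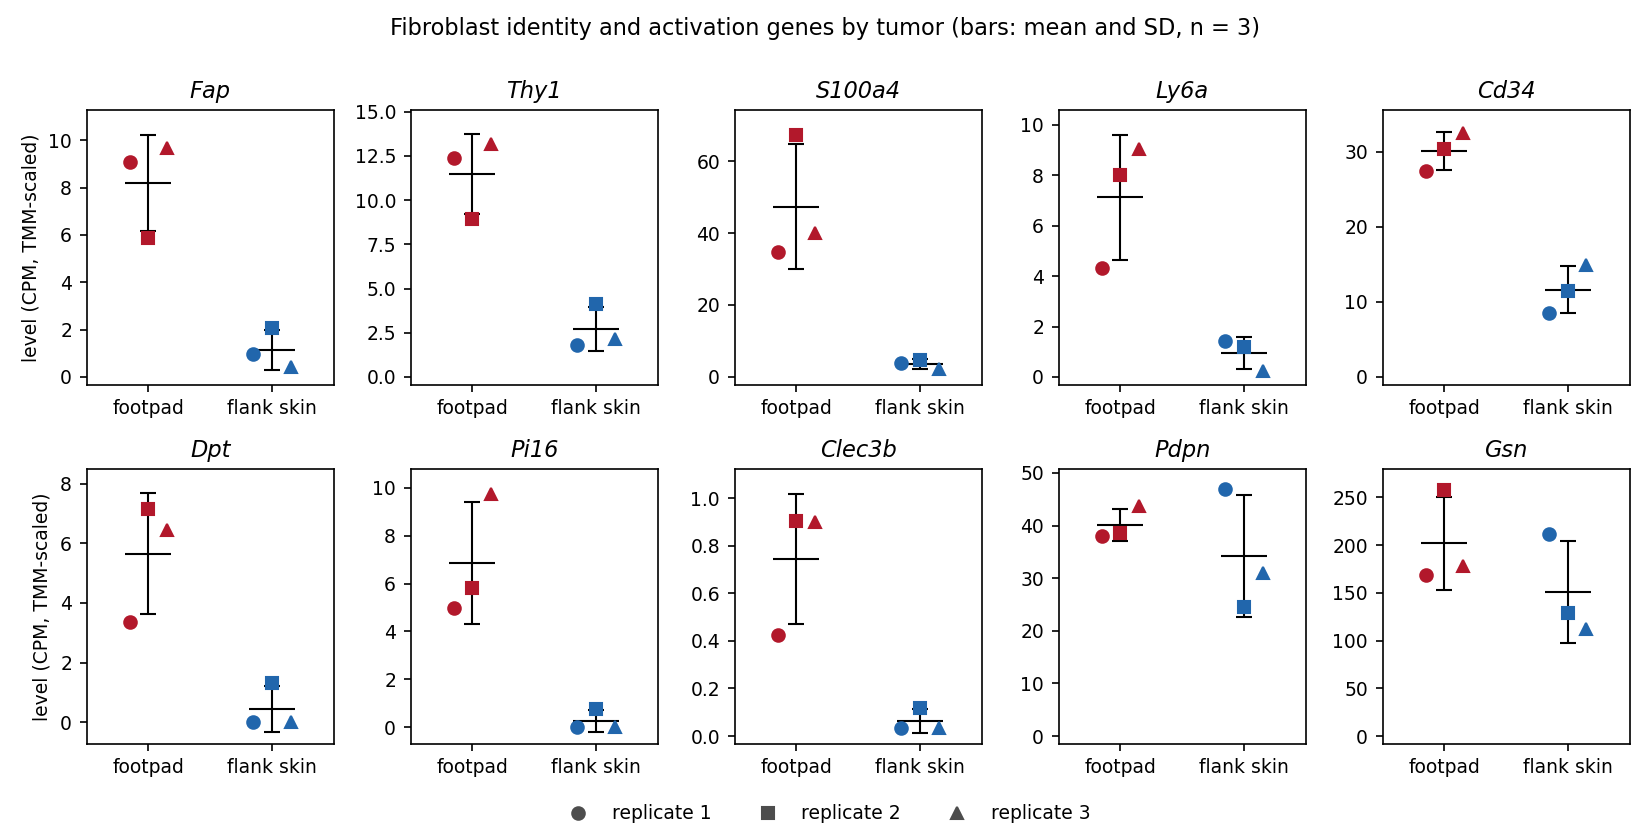
Level of the 10 genes in each tumor in TMM-scaled CPM on linear axes that differ between panels, with footpad tumors in red, flank skin tumors in blue, symbols for the replicates, and black bars for the mean and SD (n = 3 per site). The sites are separated in 8 panels and overlap for Pdpn and Gsn, and Dpt and Pi16 are at 0 in flank replicates 1 and 3.

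Fap (gene ID 14089, chr2:62500936-62575509), a membrane serine protease of activated fibroblasts, had 9.07, 5.88 and 9.66 CPM in footpad replicates 1, 2 and 3 and 0.966, 2.07 and 0.415 CPM in flank replicates 1, 2 and 3. All footpad tumors were above all flank skin tumors, and the lowest footpad value was 2.84 times the highest flank value. The log2 fold change was 2.83 ± 0.57 (SE, n = 3 per site, edgeR adjusted p = 0.0381), a 7.12-fold rise. The call held on leaving out only 2 of the 6 tumors, with edgeR adjusted p from 0.0267 to 0.136 over these fits. The flank skin tumors spread more widely than the footpad tumors, with a ratio of highest to lowest of 4.98 against 1.64.

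Thy1 (gene ID 21838, chr9:44043384-44048579), a glycolipid-anchored surface protein used to sort fibroblasts, had 12.4, 8.93 and 13.2 CPM in the footpad tumors and 1.83, 4.12 and 2.16 CPM in the flank skin tumors. As for Fap, footpad replicate 2 was the lowest of its site, flank replicate 2 the highest of its site, and the sites did not overlap. Its log2 fold change was 2.09 ± 0.36 (SE, edgeR adjusted p = 0.0270). The call of Thy1 held on leaving out only 2 of the 6 tumors, with edgeR adjusted p from 0.0187 to 0.119 over these fits. Thy1 is also a T cell gene, and the T cell receptor genes Cd3d and Cd3g had no reads in any tumor, with Cd3e at 0.0408 CPM in footpad replicate 3 and at 0 in the other 5. The summed CPM of 9 T cell genes was 1.63 to 4.76 in the footpad and 1.76 to 2.73 in the flank skin. Only 2 of the 9 were tested, and edgeR called 0 of them. DESeq2 called 1 of the 2 higher (6.71% of all genes), and 1 was above in every footpad tumor (17.5% of all genes). The part of T cells in the level of Thy1 was not tested.

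Pdpn (gene ID 14726, chr4:143267409-143299564), the mucin-like glycoprotein podoplanin of activated fibroblasts, lymphatic endothelium and some epithelia, had 38.1, 38.6 and 43.6 CPM in the footpad tumors and 47.0, 24.5 and 31.0 CPM in the flank skin tumors. The sites overlapped, since flank replicate 1 was the highest of all 6 tumors. With a log2 fold change of 0.23 ± 0.23 (SE, edgeR adjusted p = 0.572), Pdpn had the smallest difference of the 10 genes. The 95% interval was -0.32 to 0.78, so that a rise or fall of 2-fold lay outside it. Of 6 lymphatic endothelial genes, 2 were called higher, against 2.89% of all genes tested. Lyve1, the hyaluronan receptor of lymphatic vessels and some macrophages, had 11.2, 7.12 and 9.45 CPM against 0.931, 1.18 and 0.735 CPM. Ccl21a had 0.379 to 0.584 CPM in the footpad and no reads in the flank skin. Ccl21a thus entered the test only through the footpad tumors, and its call is given as a description. The lymphatic regulator Prox1 had 4.0 to 5.3 CPM against 2.85 to 3.73 CPM and was not called (edgeR adjusted p = 0.342). Their part in the level of Pdpn was not tested.

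Dpt (gene ID 56429, chr1:164796663-164824274) encodes dermatopontin, a small matrix protein that binds decorin and collagen. It had 3.34, 7.16 and 6.43 CPM in the footpad tumors, 1.32 CPM in flank replicate 2, and no reads in flank replicates 1 and 3. Pi16 (gene ID 74116, chr17:29318796-29328903), a secreted peptidase-inhibitor-like protein that marks adventitial fibroblasts, was distributed in the same way. It had 4.98, 5.82 and 9.76 CPM in the footpad, 0.770 CPM in flank replicate 2 and no reads in flank replicates 1 and 3. The sites did not overlap for either gene, yet neither was called: the log2 fold change was 3.68 ± 1.52 (SE, edgeR adjusted p = 0.184) for Dpt and 4.73 ± 1.42 (SE, edgeR adjusted p = 0.0936) for Pi16.

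Flank replicate 2 held all flank skin reads of Dpt and Pi16. Against the floor of 3 reads per library in flank replicates 1 and 3, the mean footpad level was at least 113-fold higher for Dpt and at least 137.5-fold higher for Pi16. Against flank replicate 2 alone, it was 4.29 times as high for Dpt and 8.90 times as high for Pi16. Without that tumor the comparison is with a count of 0, and its p-value is not used here. The same tumor had the highest flank level of 16 of the 18 other fibroblast genes, of 9 of 12 endothelial genes, of 8 of 9 macrophage genes and of 9 of 10 skeletal muscle genes, where 30.6% of all genes tested were highest in it. Their part in the 2 genes' levels was not tested.

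Clec3b (gene ID 21922, chr9:123150946-123157432), which encodes the plasminogen-binding protein tetranectin, was the least abundant of the 10 genes. It had 19, 62 and 44 reads in footpad replicates 1, 2 and 3 (0.427, 0.904 and 0.898 CPM) and 2, 7 and 2 reads in the flank skin tumors (0.0345, 0.120 and 0.0320 CPM). The flank replicates 1 and 3 were below the detection limit of 3 reads, and the sites did not overlap. Its log2 fold change was 3.55 ± 0.69 (SE, edgeR adjusted p = 0.0363). Since the gene passed the filter on low counts only through the footpad tumors, the call is given as a description. The edgeR adjusted p was 0.0441 without that filter and 0.0600 without footpad replicate 2, which ended the call (0.00148 to 0.142 over 12 alternatives).

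Cd34 (gene ID 12490, chr1:194938821-194961292), a sialomucin of progenitor cells, endothelium and resting fibroblasts, had 27.5, 30.4 and 32.5 CPM in the footpad tumors and 8.55, 11.5 and 14.9 CPM in the flank skin tumors. Both sites were tight, and the lowest footpad tumor was 1.85 times the highest flank tumor. The log2 fold change of 1.37 ± 0.22 (SE, edgeR adjusted p = 0.0233) was the smallest among the genes called. Without flank replicate 2 the edgeR adjusted p was 0.0558, which ended the call (7.96e-07 to 0.112 over 13 alternatives). Most endothelial genes moved the same way. Of 12, 10 did not overlap between the sites, all with the footpad above, against 17.5% of all genes tested. Vwf and Cldn5 overlapped, and the log2 fold change of Cldn5 was below 0 (-0.52 ± 0.54, SE). The summed CPM of the 12 was 350 to 400 in the footpad and 198 to 238 in the flank skin. EdgeR called 4 higher (Pecam1, Tie1, Emcn and Ptprb), against 2.89% of all genes tested. Pecam1, the endothelial adhesion molecule, had a log2 fold change of 1.31 ± 0.22 (SE, edgeR adjusted p = 0.0253), and Cdh5, vascular cadherin, of 1.28 ± 0.30 (SE, edgeR adjusted p = 0.0536), which did not pass. The call of Pecam1 held on leaving out only 1 of the 6 tumors. The part of endothelial RNA in the rise of Cd34 was not tested.

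Ly6a (gene ID 110454, chr15:74994877-74998031), stem cell antigen 1 of progenitor cells and of resting fibroblasts, had 4.31, 7.99 and 9.04 CPM in the footpad tumors and 1.41, 1.18 and 0.240 CPM in the flank skin tumors. The sites did not overlap, and the flank skin tumors differed among themselves by a ratio of highest to lowest of 5.90. Its log2 fold change was 2.91 ± 0.64 (SE, edgeR adjusted p = 0.0467), close to the threshold, and the call was lost on leaving out any of the 6 tumors, with adjusted p from 0.0626 to 0.147. Ly6a lies among relatives of its family on chr15. How any reads shared between them were counted is not given in the sources used here, so the level of Ly6a is uncertain. Its relatives Ly6c1, Ly6c2 and Ly6e had log2 fold changes of 2.02 ± 0.48, 2.24 ± 0.64 and 1.94 ± 0.45 (SE), and none of them was called by edgeR, whereas DESeq2 called all 3.

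S100a4 (gene ID 20198, chr3:90603770-90606045) encodes a small calcium-binding protein of motile cells that was long used as a fibroblast marker. It had 34.7, 67.3 and 40.1 CPM in the footpad tumors and 3.79, 4.84 and 2.08 CPM in the flank skin tumors. The lowest footpad tumor was 7.16 times the highest flank tumor, the widest gap of the 10 genes. The log2 fold change was 3.73 ± 0.39 (SE, edgeR adjusted p = 0.00971), a 13.3-fold rise, and the call held on leaving out 5 of the 6 tumors. Without footpad replicate 3 the edgeR adjusted p was 0.0541 (1.51e-22 to 0.0552 over its 13 alternatives). Footpad replicate 2, the tumor with the highest keratinocyte and muscle sums, was the highest, and the gene was called without it too.

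Gsn (gene ID 227753, chr2:35256359-35307902), gelsolin, an actin-severing protein of fibroblasts, muscle and many other cells, had 169, 258 and 178 CPM in the footpad tumors and 212, 129 and 112 CPM in the flank skin tumors. Flank replicate 1 lay above footpad replicates 1 and 3, so the sites overlapped. The sites differed by a log2 fold change of 0.42 ± 0.28 (SE, edgeR adjusted p = 0.383), with a 95% interval of -0.23 to 1.06, which just contains a 2-fold rise. Gsn was highest in footpad replicate 2, the tumor with the highest keratinocyte and muscle sums, and its log2 fold change without that tumor was not called either.

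**Figure D2:**
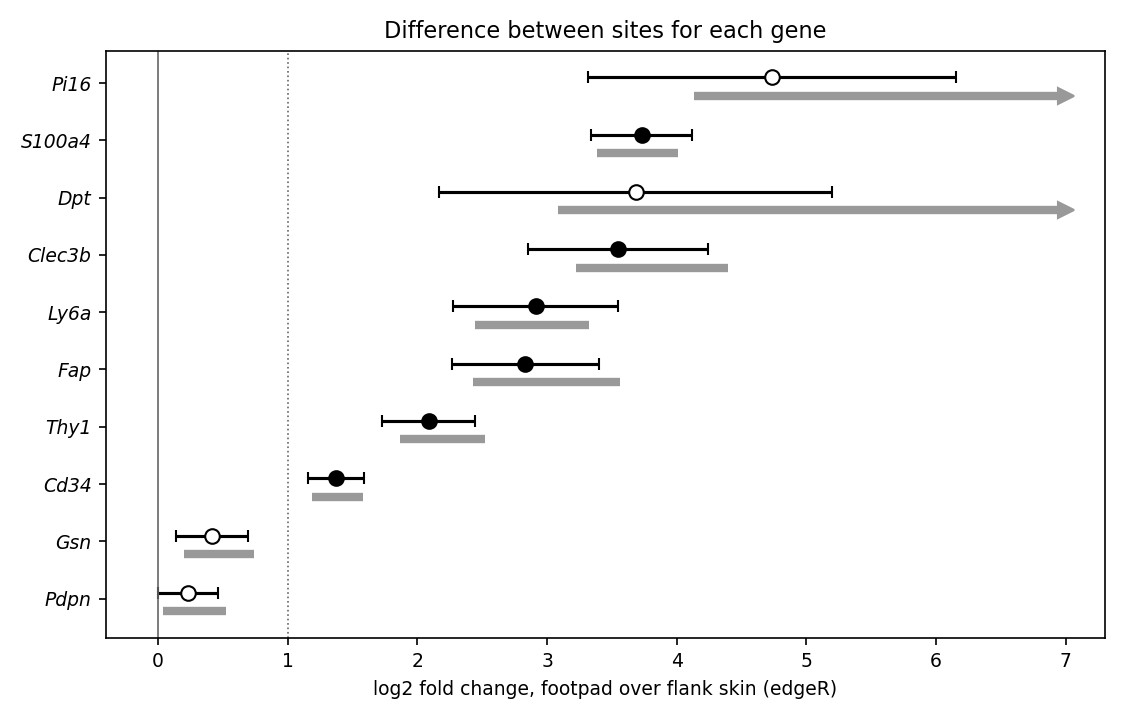
Log2 fold change of footpad over flank skin for each gene with its SE (black, n = 3 per site; filled circles are called, open circles are not) and, in grey, the range of the fitted value when each tumor was left out in turn, with arrows where it runs past the axis. The 6 called genes lie between 1.37 and 3.73, Gsn and Pdpn lie below the dotted line of a 2-fold change, and the grey ranges of Dpt and Pi16 are the widest.

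The number of these genes called depended on which tumors were fitted. Without flank replicate 2 it was 6 (all genes called higher, 2.39%). Dpt and Pi16, set there against counts of 0, took the place of Cd34 and Ly6a, so this number is only a description. Without footpad replicate 2 the number was 4 (3.62%). It fell to 2 without flank replicate 1 (1.3%), to 1 without flank replicate 3 (0.201%) or footpad replicate 1 (0.145%), and to 0 without footpad replicate 3 (0% of all genes). In the last fit 7 of the 10 genes passed an unadjusted p of 0.05 with a fold of 2, among 1459 of 17969 genes that did so upward. On all 6 tumors DESeq2 called 6 of the 10 (6.71% of all genes), edgeR without a filter on low counts 6 (1.64%) and edgeR with upper-quartile scaling 6 (2.81%). With at least 10 counts required in every tumor, 5 of the 7 genes left were called (3.76%). Limma called 8 on log2(FPKM + 0.1) (3.71%) and 7 on log2(FPKM + 1) (1.57%), Dpt and Pi16 among them. With the replicate number fitted as a block, edgeR called 0 of the 10 (0% of all genes). In that fit 8 of the 10 passed an unadjusted p under 0.05 with a fold of 2, among 1378 of 17210 genes that did so upward. No gene changed the sign of its fold change under any of these fits.

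Levels of different genes were compared only per length, as FPKM. In the footpad S100a4 (85.4 ± 36.5 FPKM, SD, n = 3) and Gsn (68.4 ± 20.5) led, and their ranges overlapped. Pdpn (19.4 ± 2.34) and Cd34 (10.7 ± 1.5) followed, each apart from its neighbours. Ly6a (6.48 ± 2.53) and Thy1 (5.86 ± 1.04) overlapped, as did Dpt (2.97 ± 1.22), Pi16 (2.76 ± 1.10) and Fap (2.70 ± 0.64), and Clec3b (0.673 ± 0.282) came last. In the flank skin Gsn (50.1 ± 14.3) and Pdpn (16.3 ± 4.17) led, S100a4 (6.41 ± 2.85) and Cd34 (4.13 ± 1.25) overlapped behind them, and the other 6 genes had means between 0.0515 and 1.42 FPKM, each overlapping the next. In the flank skin S100a4 thus ranked behind Gsn and Pdpn, both of which it exceeded in every footpad tumor.

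The label of fibroblast identity was compared with 18 other fibroblast genes (among them Pdgfra, Pdgfrb, Dcn, Lum and 7 collagen genes). Of the 18, 12 were called higher, against 2.89% of all genes tested, and none lower (0 at an unadjusted p under 0.05 with a fold of 2, and 0 by DESeq2). Their median log2 fold change was 2.89, against -0.0042 over all genes tested. Col1a1, the main chain of fibrillar collagen, had 686, 543 and 648 CPM in the footpad and 15.0, 74.3 and 19.9 CPM in the flank skin, and Dcn, decorin, had 33.6, 42.3 and 53.8 CPM against 1.55, 8.02 and 1.42 CPM. Mfap5, a microfibril protein, had the largest fold change of the list, 4.32 ± 0.82 on the log2 scale (SE, edgeR adjusted p = 0.0345). The sites overlapped for Fbln1, Serpinf1 and Pcolce, as they did for Pdpn and Gsn. The count was 15 without flank replicate 2 (2.39% of all genes), 12 without footpad replicate 2 (3.62%) and 9 without flank replicate 1 (1.3%). It was 2 without flank replicate 3 (0.201%), 1 without footpad replicate 1 (0.145%) and 0 without footpad replicate 3 (0%).

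To see whether the 10 genes moved by more or less than other fibroblast genes, the log2 CPM of each was taken relative to the mean log2 CPM of the 18 genes in the same tumor. That mean was 6.74 ± 0.24 in the footpad and 3.87 ± 0.83 in the flank skin (SD, n = 3). Relative to it, 4 genes were lower in the footpad without overlap between the sites: Pdpn by -2.59, Gsn by -2.43, Cd34 by -1.47 and Thy1 by -0.72 on the log2 scale. Each gave p = 0.1 in a two-sided exact permutation test, the smallest that 3 against 3 tumors allow, and 0.2 after adjustment over the 10 genes. Fap (0.19), Ly6a (0.28), Clec3b (0.47) and S100a4 (0.87) overlapped between the sites, with exact permutation p from 0.3 to 0.8. On the log2(FPKM + 1) scale the differences of Fap, Ly6a and Clec3b turned to -0.94, -0.35 and -1.71, and without flank replicate 3 those of Fap and Ly6a were -0.18 and -0.29. Dpt (3.30, overlapping) and Pi16 (3.84, not overlapping) rested on flank tumors without reads. On the same FPKM scale their differences were -0.69 and -0.63, and with a prior count of 0.25 they were 4.63 and 5.18. Fap, Ly6a, Clec3b, Dpt and Pi16 had flank means of 0.0515 to 0.835 FPKM, below the 1 added on that scale. Their signs there therefore cannot tell whether they rose less than the list. Pdpn, Gsn, Cd34 and Thy1 kept their sign under every alternative scale and on leaving out each tumor. So did S100a4, at 0.49 to 1.22, although its sites overlapped.

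**Figure D3:**
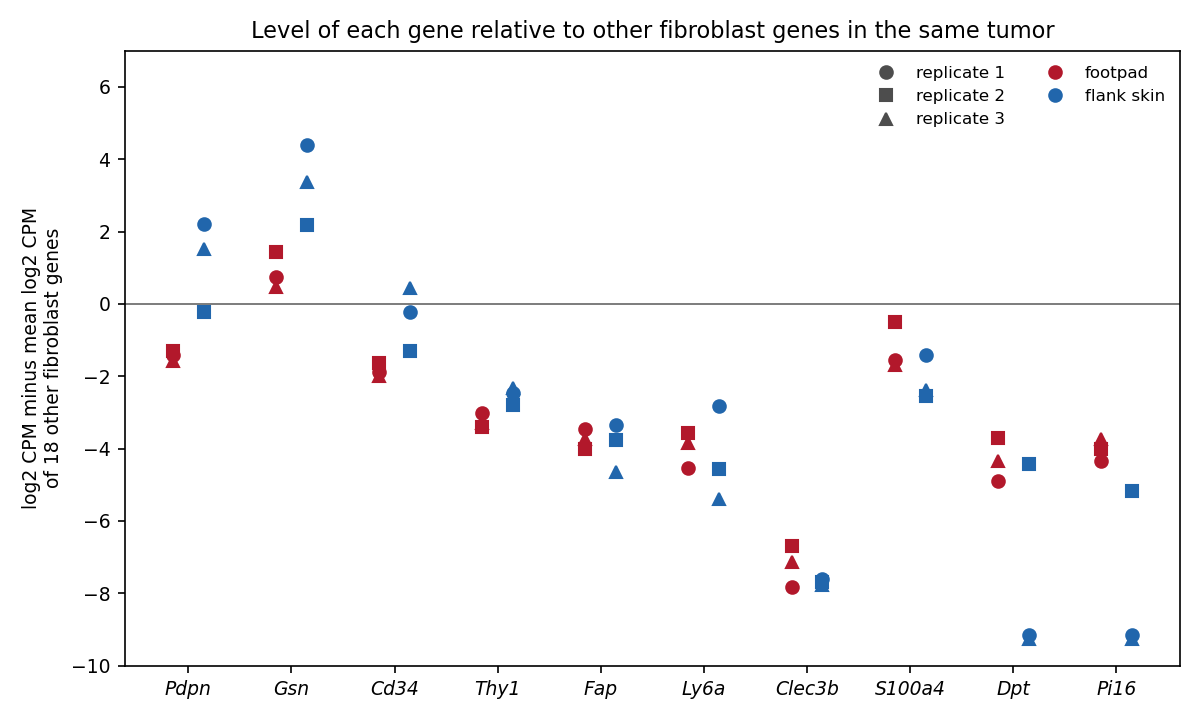
Log2 CPM of each gene minus the mean log2 CPM of 18 other fibroblast genes in the same tumor, with footpad tumors in red, flank skin tumors in blue and symbols for the replicates; the line at 0 is the list's mean. Pdpn, Gsn, Cd34 and Thy1 lie lower in all 3 footpad tumors, Fap, Ly6a, Clec3b and S100a4 overlap, and the lowest points of Dpt and Pi16 are tumors without reads.

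Among the 10 genes, profiles over the 6 tumors were compared by the root-mean-square (RMS) difference of log2 CPM after each gene was centred on its own mean. The closest pairs were Pdpn and Gsn (0.28), Clec3b and S100a4 (0.46), Dpt and Pi16 (0.48) and Thy1 and Cd34 (0.56). In the whole table, out of 13603 candidate genes, the closest to Fap were Tgfb1i1 (0.18), Spats2l (0.19) and Thbs2 (0.21), where the median candidate lay at 1.72. Thbs2, a matricellular thrombospondin, had 92.0, 91.6 and 106 CPM in the footpad and 12.5, 28.1 and 6.04 CPM in the flank skin. The closest to Thy1 were Msr1, a macrophage scavenger receptor (0.12), Setbp1 (0.13) and Dtx4 (0.16). Galnt16 and Thbs3 were among the 3 closest to both S100a4 (0.18 and 0.24) and Clec3b (0.32 and 0.28), with Tppp3 (0.28) for S100a4 and the collagen gene Col6a2 (0.32) for Clec3b. Lox, the collagen crosslinking enzyme, was the closest to Pi16 (0.71) and among the 3 closest to Dpt (0.85), with 121, 97.2 and 125 CPM in the footpad and 0.811, 13.4 and 0.735 CPM in the flank skin. The others were Sfrp2 (0.85) and Ret (0.87) for Dpt, and Arsj (0.76) and Prg4 (0.91) for Pi16. Pdpn was closest to Cyp4f13 (0.041), Gsn to Emp3 (0.068), Cd34 to the pseudogene Rpl30-ps10 (0.060) and Ly6a to Prnd (0.45). These likenesses are a description over 6 tumors of 2 sites.

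Of 19 tested genes of universal and adventitial fibroblasts, the state to which Dpt, Pi16, Clec3b, Cd34 and Ly6a belong, 7 were called higher and 0 lower (0 at an unadjusted p under 0.05 with a fold of 2, and 0 by DESeq2), with a median log2 fold change of 2.06. Igfbp6, a binding protein of insulin-like growth factors, had 4.33, 6.01 and 4.74 CPM in the footpad and 0.345, 0.462 and 0.399 CPM in the flank skin, a log2 fold change of 3.64 ± 0.32 (SE, edgeR adjusted p = 0.00677). Fbn1, fibrillin, rose by 3.61 ± 0.61 and Tnxb, a tenascin of the dermis, by 2.61 ± 0.50 on the log2 scale (SE). The other genes called were Ackr3, Anxa3, Col15a1 and Cd248, where 2.89% of all genes tested were called higher. Dpp4, a surface peptidase of interstitial progenitors and a close relative of Fap, had 0.427, 0.875 and 0.653 CPM against 2.04, 1.04 and 0.431 CPM and was not called (log2 fold change -0.83 ± 0.60, SE, edgeR adjusted p = 0.420). The count of this list was 6 to 8 without flank replicate 1, flank replicate 2 or footpad replicate 2 (1.3%, 2.39% and 3.62% of all genes). It was 1 without flank replicate 3 or footpad replicate 1 (0.201% and 0.145%), and 0 without footpad replicate 3 (0%).

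Of 17 tested genes of activated fibroblasts and myofibroblasts, the state of Fap and Pdpn, 3 were called higher and 0 lower (0 at an unadjusted p under 0.05 with a fold of 2, and 0 by DESeq2), with a median log2 fold change of 1.49. Postn, periostin, had 355, 240 and 502 CPM in the footpad and 8.71, 46.0 and 9.95 CPM in the flank skin (log2 fold change 4.09 ± 0.71, SE, edgeR adjusted p = 0.0271). Cthrc1, a secreted protein of activated fibroblasts, had 5.34, 8.02 and 7.17 CPM against 0, 0.496 and 0.128 CPM (5.03 ± 1.01, SE, edgeR adjusted p = 0.0384). With 0 and 8 reads in flank replicates 1 and 3, it entered the test only through the footpad tumors, so its call is a description. Acta2, smooth muscle actin, had 23.8, 41.6 and 34.1 CPM against 11.3, 15.8 and 8.39 CPM (1.49 ± 0.29, SE, edgeR adjusted p = 0.0357). The call of Acta2 held on leaving out only 1 of the 6 tumors. Adam12, a metalloprotease, had 34.7, 34.0 and 54.0 CPM against 62.0, 65.9 and 69.2 CPM, below in every footpad tumor but not called (-0.68 ± 0.20, SE, edgeR adjusted p = 0.0860). DESeq2 called 7 genes of this list higher (6.71% of all genes), where edgeR called 3 (2.89% of all genes). The count was 9 without flank replicate 2 (2.39% of all genes), 4 without footpad replicate 2 (3.62%) and 1 without flank replicate 1 (1.3%). It was 0 without flank replicate 3, footpad replicate 1 or footpad replicate 3 (0.201%, 0.145% and 0%). Pericyte and smooth muscle genes, which share Acta2, had 0 of 7 called higher or lower (0 at an unadjusted p under 0.05 with a fold of 2, and 0 by DESeq2), with a median of 0.12.

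Relatives of the 10 genes in sequence or family behaved differently from one another. Of 24 tested, edgeR called 3 higher and 1 lower, against 2.89% and 0.872% of all genes tested. DESeq2 called 7 higher and 2 lower, against 6.71% and 2.05% of all genes tested. The median log2 fold change of the relatives was 0.53. The 3 called higher were relatives of S100a4 in the S100 family. S100a6 had 131, 117 and 135 CPM in the footpad and 16.8, 19.7 and 8.87 CPM in the flank skin (3.08 ± 0.29, SE, edgeR adjusted p = 0.00677). S100a10, a partner of annexin, had 101, 110 and 114 CPM against 36.2, 36.6 and 38.9 CPM (1.54 ± 0.12, SE, edgeR adjusted p = 0.00677), and S100a16 rose by 1.24 ± 0.25 on the log2 scale (SE). The call of S100a16 was lost on leaving out any of the 6 tumors (edgeR adjusted p from 0.0600 to 0.142). S100a1, S100a3, S100a11 and S100a13 overlapped between the sites and were not called, S100a11 with a fitted fold of 2.72 (edgeR adjusted p = 0.169). In the gelsolin family Vill, villin-like, fell in the footpad, with 14.7, 14.2 and 15.0 CPM against 37.2, 38.0 and 32.5 CPM (-1.29 ± 0.13, SE, edgeR adjusted p = 0.00926), and Capg, an actin-capping relative, overlapped (-0.37 ± 0.33, SE). Avil was below in every footpad tumor (-2.77 ± 1.07, SE) and was called lower by DESeq2 but not by edgeR (edgeR adjusted p = 0.164). The proteases Dpp8, Dpp9 and Prep, relatives of Fap, had log2 fold changes between -0.12 and 0.31 and were not called by edgeR or DESeq2. The number of relatives called higher was 0 without footpad replicate 3 (0% of all genes) and 2 to 4 without any other tumor (0.145% to 3.62%).

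**Figure D4:**
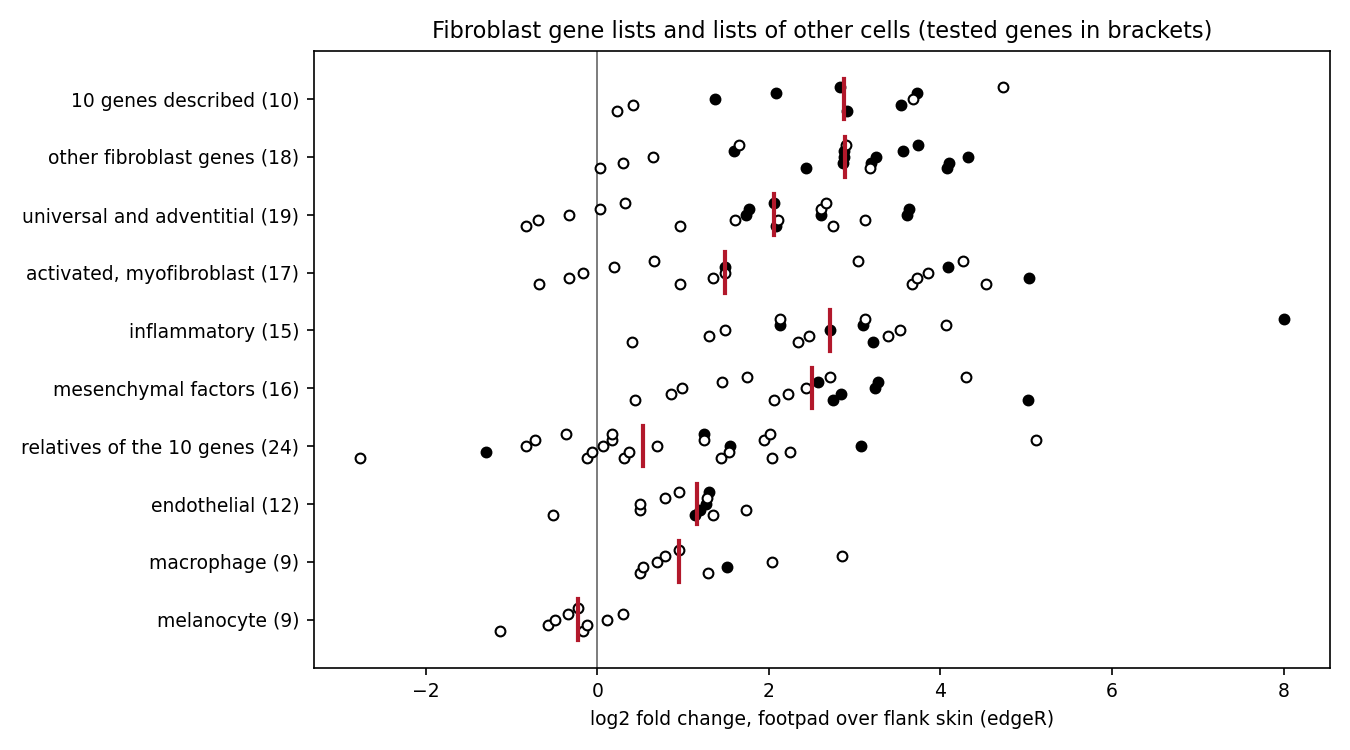
Log2 fold change of footpad over flank skin for each tested gene (filled circles are called, open circles are not) in lists of fibroblast genes and of other cells, with the median of each list as a red line and the number of tested genes in brackets; 1 gene of the inflammatory list, Has1, without reads in the flank skin, has a fitted value above 8 and is drawn at 8. The medians are 2.87 for the 10 genes, 2.89 for the other fibroblast genes, 2.06 for the universal and adventitial list, 1.49 for the activated list and -0.23 for melanocyte genes.

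Markers of other cells that use some of the 10 genes were summed for each tumor. Melanocyte genes, which mark the graft, had a summed CPM of 13812 to 23809 in the footpad and 17853 to 29444 in the flank skin, and 0 of 9 were called (0 higher and 1 lower at an unadjusted p under 0.05 with a fold of 2, 0 by DESeq2). Macrophage genes summed to 261 to 293 CPM in the footpad and 34.5 to 180 CPM in the flank skin. Of the 9, 1 was called higher, Cd68, against 2.89% of all genes tested. Neutrophil genes overlapped, with 6.61 to 346 CPM in the footpad against 4.22 to 29.1 CPM in the flank skin. Keratinocyte genes (9.84 to 450 CPM against 1.60 to 11.7 CPM) and skeletal muscle genes (7.04 to 637 CPM against 8.78 to 72.9 CPM) were highest in footpad replicate 2 for all 7 and all 10 genes tested, where 39.2% of all genes tested were the highest of the footpad in it. EdgeR called none of the 8 neutrophil, 7 keratinocyte and 10 skeletal muscle genes tested. DESeq2 called 1, 2 and 0 of them higher (6.71% of all genes). At an unadjusted p under 0.05 with a fold of 2, 6, 5 and 1 of them were higher, among 1577 of 17210 genes. EdgeR also called 0 of 7 Schwann cell genes (1 at that unadjusted p and fold, 0 by DESeq2) and 0 of 3 adipocyte genes (0 and 0). No natural killer cell gene passed the filter. Of 2 tendon genes tested 1, Fmod, was called higher. The 5 tendon genes listed summed to 0.0345 CPM in flank replicate 1, so Fmod passed the filter only through the footpad tumors. Its call is thus a description. The part of these cells in the levels of the 10 genes was not tested.

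**Figure D5:**
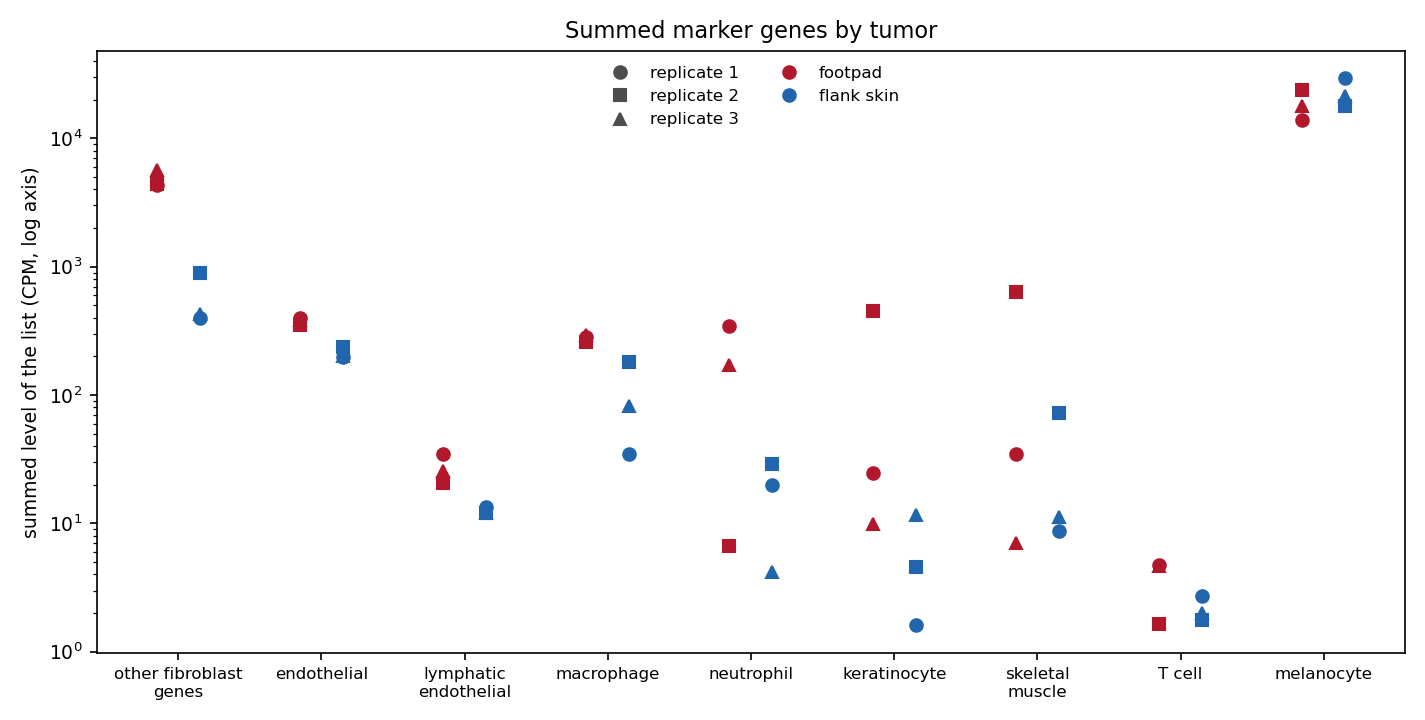
Summed CPM of marker gene lists in each tumor on a log axis, with footpad tumors in red, flank skin tumors in blue and symbols for the replicates. The other fibroblast genes lie at 4300 to 5637 CPM in the footpad and 397 to 886 CPM in the flank skin, the endothelial and macrophage lists are also separated by site, and the keratinocyte and skeletal muscle lists stand out in footpad replicate 2.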

How the data were processed

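Total RNA of 3 footpad and 3 flank skin B16F10 tumors was analysed, 1 library each, with site and replicate taken from the labels. The authors checked reads with FastQC 0.11.7, trimmed them with Trimmomatic and aligned them with HISAT2 2.1.0 to mm10. The authors deposited unnormalized read counts for each gene and, beside them, FPKM values scaled for length and depth. The counting program and its use of strand are not given in the sources used here. The labels name both a plain and a stranded library kit. Genes that overlap another annotated gene (Dpt, Pi16, Cd34, Ly6a and Gsn, each with 1 neighbour of at most 54 reads over all tumors) were counted as deposited.

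Counts were fitted in R 4.3.3 with edgeR 4.0.16 (filterByExpr, TMM, glmQLFit, glmQLFTest, Benjamini-Hochberg over 17210 genes), and the SE was the size of the log2 fold change over the square root of F. The common biological coefficient of variation was 0.338, and replicates differed by more than sampling noise (chi-square of 62.3 to 578 per gene). Depth sets the detection limit of 3 reads per library. FPKM values were used to compare levels between genes and in the limma alternatives, and log2 CPM with a prior count of 1 for profiles. Gene IDs were matched to RefSeq GRCm38.p6 for 45679 of 45777 genes and for 10 of 10 members. Fap, Thy1, Clec3b and Ly6a had no promoter window.

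The 10 genes and the gene lists were chosen with earlier results of these data known. The genes named are the 10, the called genes of each list with the 3 largest fold changes, and list genes with a defining role. List genes used by a cell type that also expresses one of the 10 are named too. Col3a1 was among the 3 largest of its list but is not described. The 3 closest profiles of each were sought among tested genes with a mean of 1 CPM or more. For Pdpn, Gsn, Cd34 and Ly6a only the closest is named. Ly6 relatives, Prep, Dpp8, Dpp9, Adam12, and genes named only for overlapping between sites were picked with their values in view. The alternatives were DESeq2 1.42.0, no filter, at least 10 counts in every tumor, upper-quartile scaling, limma 3.58.1 on log2(FPKM + 1) or log2(FPKM + 0.1), the replicate number as a block, a prior count of 0.25, and each tumor left out in turn. The fits were tested on simulated data. Python 3.11.15 with scipy 1.17.1, pandas 2.3.3, numpy 2.4.6 and matplotlib 3.10.9 made the tables and figures.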

Additional observations from a re-analysis of the deposited data

How the results depend on the processing

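Of all genes tested, edgeR called 497 higher and 150 lower in the footpad, DESeq2 1154 and 352, and limma on log2(FPKM + 1) 271 and 95. Leaving out each tumor gave 0 to 639 higher and 0 to 197 lower, and 0 to 6 of the 10 fibroblast genes. Without footpad replicate 3, an unadjusted p of 0.05 with a fold of 2 was passed by 1459 genes upward and 420 downward. The replicate number was also fitted as a block. Same-numbered tumors of the sites did not deviate together, with r from -0.11 to 0.054 over 3 pairs. Of the 6 tumors, 0 were closest to their own number. No source says that equal numbers mark 1 mouse, so the numbers were not taken to pair the tumors. The sites may still share animals, since the study counts mice for its expression values and describes grafting the sites at once. A pairing of tumors under other numbers was not tested. With the replicate block 0 genes were called higher, 0 lower and 0 of the 10 (1378, 413 and 8 at an unadjusted p under 0.05 with a fold of 2; higher, lower and of the 10). Of 127 fold changes of the 10 genes under alternatives, 0 reversed, 31 lost the adjusted p or fold of a call and 6, all of Dpt or Pi16, gained it. The cause was not tested. Reads on Clec3b, and on Dpt and Pi16 in the flank skin, were few enough for counting error to matter.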

Other observations

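Of 15 genes of inflammatory fibroblasts, 5 were called higher in the footpad, against 2.89% of all genes tested. They were the chemokines Ccl2 and Ccl7, the hyaluronan synthase Has1, the alarmin Il33 and the hyaluronan-binding Tnfaip6. The list's median log2 fold change was 2.71, and 0 genes were called lower (0 at an unadjusted p under 0.05 with a fold of 2, and 0 by DESeq2). Has1 had 3.05, 1.39 and 3.23 CPM in the footpad tumors and no reads in any flank skin tumor. It thus entered the test only through the footpad tumors, and its call is given as a description. Ccl2 had 34.1, 18.6 and 31.9 CPM against 2.16, 4.81 and 2.92 CPM (log2 fold change 3.10 ± 0.37, SE, edgeR adjusted p = 0.0139). Il33 had 15.9, 4.97 and 13.7 CPM against 0.379, 1.83 and 1.5 CPM, and its call held on leaving out only 1 of the 6 tumors. The count was 7 without flank replicate 2 or footpad replicate 2 (2.39% and 3.62% of all genes) and 5 without flank replicate 1 (1.3%). It was 1 without flank replicate 3 (0.201%) and 0 without footpad replicate 1 or footpad replicate 3 (0.145% and 0%).

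Of 16 tested transcription factor genes of mesenchymal cells, 6 were called higher, against 2.89% of all genes tested. They were Twist2, Prrx1, Osr1, Meox2, Tbx18 and Ebf2. Of the 16, 0 were called lower (0 at an unadjusted p under 0.05 with a fold of 2, and 0 by DESeq2). Their median log2 fold change was 2.50. Twist2 had 2, 5 and 5 reads and Osr1 0, 6 and 0 reads in the flank skin tumors. Tbx18 had 8 reads in flank replicate 1. These 3 genes entered the test only through the footpad tumors, so their calls are given as a description. The call of Twist2 was lost on leaving out any of the 6 tumors. Prrx1, a limb and dermal mesenchyme factor, had 34.9, 18.3 and 27.9 CPM in the footpad and 2.1, 4.96 and 1.5 CPM in the flank skin (3.24 ± 0.48, SE, edgeR adjusted p = 0.0201). Ebf2 had 1.66, 2.55 and 3.0 CPM against 0.241, 0.325 and 0.176 CPM (3.27 ± 0.43, SE, edgeR adjusted p = 0.0141). Footpad and flank skin also differ in body position, and position and tumor site cannot be told apart in these factors. The count was 6 without flank replicate 2 (2.39% of all genes), 4 without footpad replicate 2 (3.62%) and 3 without flank replicate 1 (1.3%). It was 0 without flank replicate 3, footpad replicate 1 or footpad replicate 3 (0.201%, 0.145% and 0%).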
